A study of Mus musculus with 3 samples.

Results

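T1-like nuclei (middle tufted) and ET1-like nuclei (external tufted) of the mouse olfactory bulb were compared by summing the raw UMIs of deposited subcluster 0 (T1-like) and deposited subcluster 4 (ET1-like) within each of 3 mice. The comparison held 2831 nuclei of the 31703 that the authors retained, 2128 T1-like (522, 1059 and 547 in mice 1, 2 and 3) and 703 ET1-like (147, 442 and 114), so that 3 T1-like libraries stood against 3 ET1-like libraries, paired by mouse. All nuclei came from adult male C57Bl/6 mice that carried the same treatment: rAAV-retro-CAG-H2B-GFP, a virus that enters axon terminals and labels nuclei with green fluorescent protein, was injected into 2 targets of bulb axons, the piriform cortex and the anterior olfactory nucleus. Nuclei of the injected side's bulb were sorted on GFP and a DNA dye and counted in droplets, with 1 library per mouse and no uninjected group. The shares of nuclei of each type can follow the uptake of the virus and this gate.

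Tufted cells are glutamatergic output neurons of the bulb that take odorant input from sensory axons in the glomeruli and send axons to olfactory cortex, above all its anterior part. Middle tufted cells have somata in the external plexiform layer, whereas external tufted cells lie at the border of the glomeruli. External tufted cells are known for intrinsic rhythmic bursting, which relies on persistent sodium, T-type calcium and hyperpolarization-activated currents, and for exciting other cells of the same glomerulus.

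The deposited table numbers the subclusters and names no cell type, so the names were checked against the marker lists of the study. All 9 T1 markers stood at 50% or more of their highest subcluster level in subcluster 0, and 8 of them were highest there. All 7 ET1 markers stood at 50% or more in subcluster 4, with 6 highest there. Subcluster 4 also held 3 of the 9 T1 markers at that level, and none of the 7 ET4 or 11 M2 markers reached it in either subcluster. The layer names middle and external come from the study and cannot be read from these counts. Because the nuclei had been clustered on the same counts, the p-values given here describe how far the 2 clusters differ relative to the spread between mice, and are no independent test that the types exist.

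Summed libraries held 8561548, 16961469 and 10403928 UMIs for T1-like nuclei of mice 1, 2 and 3, and 2228807, 6076450 and 2058138 UMIs for ET1-like nuclei. The median T1-like nucleus held 15743.5, 14652 and 18071 UMIs, and the median ET1-like nucleus 13888, 12430.5 and 17333.5. T1-like nuclei were the deeper in every mouse, by 0.16 ± 0.09 on the log2 scale (SD, n = 3), which the exact sign-flip permutation test could not place below its smallest two-sided p of 0.25. The ET1-like share of both types together was 21.97% for mouse 1, 29.4% for mouse 2 and 17.2% for mouse 3. The exact binomial 95% limits, which cover counting error only, were 18.9 and 25.3%, 27.1 and 31.8%, and 14.4 and 20.3%. Between 17 and 90 called barcodes were shared by a pair of libraries, and 1 barcode was shared among the nuclei compared here.

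Of 14152 genes tested, 658 were higher in T1-like and 599 in ET1-like nuclei, at a Benjamini-Hochberg adjusted p under 0.05 (edgeR quasi-likelihood test with mouse as a block) and a log2 fold change beyond 1. Levels are given as CPM, the UMIs of a gene per 1000000 UMIs of its library. These calls covered 4.65% and 4.23% of the genes tested, or 8.88% in either direction, and are the background of every list count that follows. The 3 libraries of the higher type lay above all 3 of the other for 628 and 569 of the called genes. Over all genes tested, called or not, all T1-like libraries lay above all ET1-like libraries for 17.1% of genes, and the reverse held for 18%. Differences over 8-fold numbered 64 toward T1-like and 87 toward ET1-like nuclei. The median log2 fold change of all genes was -0.01 (T1-like minus ET1-like, as for every fold change here). Among the 658 genes called higher in T1-like nuclei, 4 had no UMI in any ET1-like library. Their fitted fold changes, at the top of the plot of every gene tested, depend on the prior count. None of these 4 was above 5.11 CPM in T1-like nuclei.

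**Figure D1:**
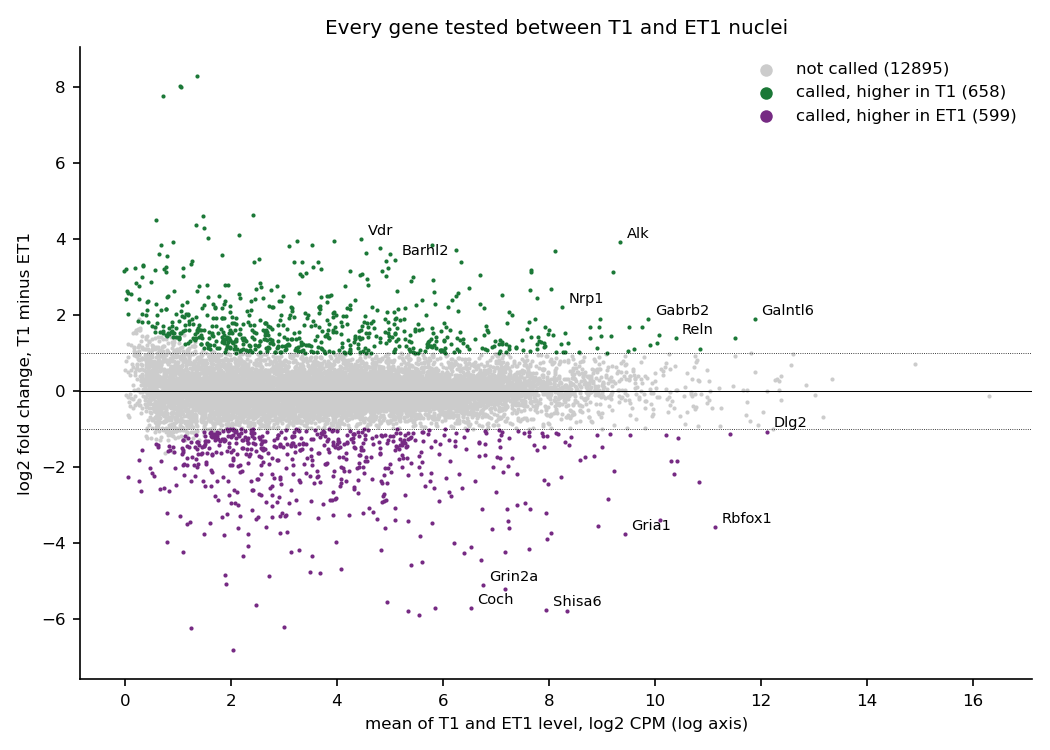
Log2 fold change (T1 minus ET1, vertical) against the mean level of both types as log2 CPM (horizontal), 1 point per gene, for T1-like and ET1-like nuclei. The 658 genes called higher in T1 and the 599 called higher in ET1 are coloured and spread over the whole range of levels.

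Sequence upstream of the genes that mark each type is shown first, from RefSeq on GRCm38.p6, 250 bases before to 50 after the annotated start, 5′ to 3′. Barhl2 and Coch were chosen as a transcription factor that marks T1-like nuclei and a secreted protein that marks ET1-like nuclei, and Tpbgl as the ET1 marker whose window held the homeodomain motif TAAACG, which BARHL proteins bind. Motifs are in capitals, and 10364 of the genes tested had an entry.
Barhl2 (chr5:106458117-106458416, minus strand): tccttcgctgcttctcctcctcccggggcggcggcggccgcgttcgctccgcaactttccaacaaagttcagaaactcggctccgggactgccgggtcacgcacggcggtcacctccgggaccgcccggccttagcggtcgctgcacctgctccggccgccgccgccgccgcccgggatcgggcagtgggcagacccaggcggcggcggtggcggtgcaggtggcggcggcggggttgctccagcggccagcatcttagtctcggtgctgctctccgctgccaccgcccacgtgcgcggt
Coch (chr12:51593091-51593390, plus strand): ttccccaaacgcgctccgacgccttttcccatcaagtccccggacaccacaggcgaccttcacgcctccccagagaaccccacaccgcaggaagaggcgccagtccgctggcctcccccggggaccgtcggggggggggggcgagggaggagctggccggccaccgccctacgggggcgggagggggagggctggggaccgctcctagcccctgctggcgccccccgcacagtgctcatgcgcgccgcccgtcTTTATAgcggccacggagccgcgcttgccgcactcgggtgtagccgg
Tpbgl (chr7:99627054-99627353, minus strand): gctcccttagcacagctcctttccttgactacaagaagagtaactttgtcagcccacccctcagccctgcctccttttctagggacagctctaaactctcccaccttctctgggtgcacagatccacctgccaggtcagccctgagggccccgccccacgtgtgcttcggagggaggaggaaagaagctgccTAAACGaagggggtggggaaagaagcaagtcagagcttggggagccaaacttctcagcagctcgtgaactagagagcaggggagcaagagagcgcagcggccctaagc
In the Coch window the capitals mark TATAAA, read on the opposite strand just past the start, and in the Tpbgl window they mark TAAACG. The latter stood on either strand in 1.81% of 443 promoters of genes called higher in T1-like nuclei, in 2.69% of 409 called higher in ET1-like nuclei and in 3.16% of all 10364. TAGGTCA, the half-site that ROR-family receptors bind, stood in 1.35% of the T1-like promoters, in 0% of the ET1-like ones and in 1.8% of all. The direct repeat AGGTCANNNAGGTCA, a vitamin D receptor element, stood in none of the 10364. TATAAA stood in 10.6% of the T1-like promoters, in 8.07% of the ET1-like ones and in 7.33% of all. These matches describe the letters in a short window and are not evidence of binding.

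Of the 9 genes in the T1 list of the study, 8 were tested, 5 were higher in T1-like nuclei and none in ET1-like nuclei. The list was chosen on these samples, so its direction is not independent evidence. Barhl2, a homeodomain transcription factor (GRCm38 chr5:106452523-106458166, minus strand), stood at 63.5, 60.1 and 63.4 CPM in T1-like and 6.73, 4.77 and 6.802 CPM in ET1-like nuclei (log2 fold change 3.46, SE 0.16, edgeR adjusted p = 8.92e-17). Vdr, the vitamin D receptor (chr15:97854425-97910630, minus strand), stood at 42.7, 37.3 and 44.3 CPM in T1-like and 1.35, 2.47 and 3.89 CPM in ET1-like nuclei (log2 fold change 4.01, SE 0.22, edgeR adjusted p = 3.74e-15). Neither gene's libraries overlapped between the types. Cacna1g, the T-type calcium channel Cav3.1, stood at 29.7, 31.95 and 25.95 CPM in T1-like and 12.1, 9.87 and 12.6 CPM in ET1-like nuclei (log2 fold change 1.44, SE 0.17, edgeR adjusted p = 6.39e-08). Tspan10, a tetraspanin, was the lowest of the 5, at 10.9, 7.78 and 6.54 CPM in T1-like and 2.69, 2.63 and 1.94 CPM in ET1-like nuclei (log2 fold change 1.74, SE 0.31, edgeR adjusted p = 5.42e-05). The rest of the list did not pass the fold threshold. Fam84b stood at 21.1, 17.04 and 13.4 CPM in T1-like and 22.9, 13.001 and 13.6 CPM in ET1-like nuclei and overlapped (log2 fold change 0.15, SE 0.17, edgeR adjusted p = 0.602), and the odorant receptor genes Olfr110 and Olfr111 are given with their neighbours further on. Kcna10 was too low to be tested.

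All 7 genes of the ET1 list, also chosen on these samples, were higher in ET1-like nuclei. Coch, a secreted protein first known from the inner ear (chr12:51593341-51605771, plus strand), stood at 179, 193 and 176 CPM in ET1-like and 3.39, 3.66 and 3.27 CPM in T1-like nuclei (log2 fold change -5.70, SE 0.11, edgeR adjusted p = 1.86e-25). Tpbgl (chr7:99624082-99627103, minus strand), which overlaps Gm10605 on the opposite strand, stood at 84.8, 46.7 and 49.1 CPM in ET1-like and 1.52, 1.65 and 0.192 CPM in T1-like nuclei (log2 fold change -5.55, SE 0.24, edgeR adjusted p = 2.07e-17). For both genes every T1-like library was below 4 CPM. Wnt5b, a secreted Wnt ligand, was detected in both types, at 207, 166 and 204 CPM in ET1-like and 23.4, 21.99 and 19.7 CPM in T1-like nuclei (log2 fold change -3.10, SE 0.09, edgeR adjusted p = 1.72e-21). Rorb, a ROR-family nuclear receptor, was likewise graded rather than absent, at 289.8, 217 and 235 CPM in ET1-like and 58.9, 81.7 and 69.5 CPM in T1-like nuclei (log2 fold change -1.76, SE 0.10, edgeR adjusted p = 8.69e-15). Chst9, a sulfotransferase, Clcf1, a cytokine, and Rxfp1, the relaxin receptor, had log2 fold changes of -2.65, -2.40 and -1.72. In ET4-like nuclei, another external tufted group, Coch averaged 61.2 CPM, Wnt5b 85.4 and Tpbgl 36.5, between the ET1-like and T1-like levels. The 471 ET2-like nuclei, also external tufted, did not share this and averaged 6.603 CPM of Coch, 10.1 of Wnt5b and 0.344 of Tpbgl.

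**Figure D2:**
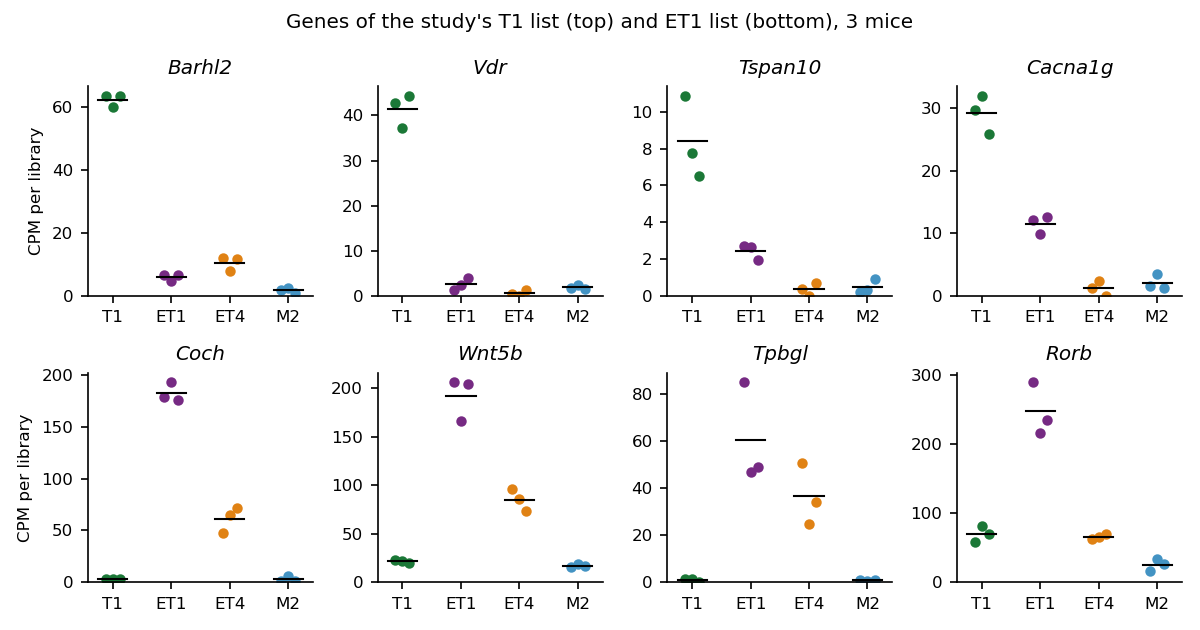
CPM of 4 genes of the T1 list (top) and 4 of the ET1 list (bottom) in T1-, ET1-, ET4- and M2-like nuclei, 1 point per mouse with the mean as a line. The 3 libraries of the type whose list it is lie above those of the other 3 types, except for Tpbgl, where the ET1 and ET4 libraries overlap.

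At the level of single nuclei, each nucleus was thinned to 3000 UMIs, which left out 11 T1-like and 3 ET1-like nuclei that were shallower. A Barhl2 UMI was then found in 15.8 to 16.4% of T1-like nuclei across mice and in 1.13 to 1.77% of ET1-like nuclei, and without thinning in 49.4 to 51.7% and 4.08 to 7.89%. For Coch the thinned shares were 0.772 to 1.47% of T1-like and 40.5 to 44.2% of ET1-like nuclei, and without thinning 3.83 to 4.34% and 78.9 to 80.7%. Clusters 0 and 1, inhibitory neurons by their Gad1 (1019 and 542 CPM), Gad2 and Slc32a1, should lack both genes and give the background from free RNA. They showed Barhl2 in 0.205 to 0.399% and Coch in 0.747 to 1.46% of nuclei after thinning, from medians of 7013 to 9086 UMIs. The Coch share of T1-like nuclei was thus at this background, whereas the Barhl2 share of ET1-like nuclei was above it in each mouse, though on few nuclei. Without thinning, with the UMIs of Barhl2 and Vdr taken as 1 set and those of Coch, Wnt5b and Tpbgl as the other, 50, 51.1 and 54.5% of T1-like nuclei of mice 1, 2 and 3 held only the first, 8.05, 8.499 and 7.68% only the second and 14.2, 14.45 and 13.9% both. The inhibitory clusters, of lower depth, held only the second set in 7.36, 10.07 and 8.91% of nuclei and both in 0.0956, 0.113 and 0.203%. For Wnt5b, the most often found gene of the second set in T1-like nuclei, the thinned share was 4.6 to 5.68% there and 2.25 to 3.54% in the inhibitory clusters, so that it was above this background. Of ET1-like nuclei, 92.5, 88.01 and 86.8% held only the second set and 4.08, 5.43 and 9.65% held both. After thinning, both were found in 1.74, 1.04 and 1.29% of T1-like and 1.38, 0.905 and 1.77% of ET1-like nuclei. These shares describe the clusters and, since the genes helped to form them, carry no test.

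The genes that changed most toward T1-like nuclei, by the fixed rule (largest fold among called genes of at least 20 CPM), included a receptor tyrosine kinase, a calcium channel and enzymes of second messengers. Alk, a receptor tyrosine kinase, was by far the most abundant, at 1177, 1226 and 1267 CPM in T1-like and 80.8, 84.6 and 77.7 CPM in ET1-like nuclei (log2 fold change 3.93, SE 0.07, edgeR adjusted p = 6.09e-26). Its ET1-like libraries lay within a narrow range, as did its T1-like ones. Pcdh1, a protocadherin, stood at 33.5, 28.5 and 25.2 CPM in T1-like and 0.897, 2.47 and 1.46 CPM in ET1-like nuclei, and Wif1, a secreted inhibitor of Wnt ligands, at 12.96, 20.2 and 31.3 CPM in T1-like and 0.449, 1.32 and 2.92 CPM in ET1-like nuclei. Dgkg, a diacylglycerol kinase, stood at 135, 137 and 155 CPM in T1-like and 12.6, 12.3 and 5.34 CPM in ET1-like nuclei. Pde11a, a cyclic nucleotide phosphodiesterase, stood at 69.03, 56.7 and 52.4 CPM in T1-like and 5.83, 5.102 and 3.401 CPM in ET1-like nuclei. The 12 genes of this group had log2 fold changes from 3.44 (Grin2c) to 4.01 (Vdr), and all passed. Besides those named, they were the phosphatase gene Ptpn20, the lincRNA Gm36251, Cacna1h, Barhl2 and the vomeronasal receptor gene Vmn1r209. With other settings the log2 fold change of Dgkg ran from 3.49 to 4.71 and that of Pde11a from 3.54 to 4.64. Both were highest without nuclei holding 3 or more UMIs of the ET4 list. That of Pcdh1 ran from 3.68 to 4.66, highest without mouse 2. Vmn1r209 stood at 495, 568 and 481 CPM in T1-like and 30.1, 46.9 and 44.7 CPM in ET1-like nuclei, and 29.4% of the 50-base words of its transcripts also occur in transcripts of other olfactory or vomeronasal receptor genes, so its counts are uncertain. M2-like nuclei, a mitral type, carried Alk at a mean of 624 CPM, Vmn1r209 at 459 and Dgkg at 183, and ET4-like nuclei held 22.6, 12.3 and 5.12 CPM. The external tufted groups were not alike in this, since ET2-like nuclei averaged 24.01 CPM of Alk but 465 of Vmn1r209 and 189 of Dgkg.

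Among the 8 most abundant genes called toward T1-like nuclei, the differences were smaller, with log2 fold changes from 1.10 to 1.89. Galntl6, a glycosyltransferase-like gene, stood at 6500.2, 5674 and 5630.2 CPM in T1-like and 1678, 1389 and 1841 CPM in ET1-like nuclei (log2 fold change 1.89, SE 0.07, edgeR adjusted p = 1.68e-19). Reln, the secreted glycoprotein reelin, stood at 1937, 2009 and 1887 CPM in T1-like and 711, 711 and 827 CPM in ET1-like nuclei (log2 fold change 1.40, SE 0.06, edgeR adjusted p = 6.29e-17). Hdac9, a class IIa histone deacetylase, stood at 2596, 2434 and 2518 CPM in T1-like and 1234, 1099.5 and 1264 CPM in ET1-like nuclei, and without nuclei rich in ET4-list UMIs its log2 fold change was 0.97, under the threshold. The others were Lhfpl3, Agbl4, Fam155a, Gabrb2 and Grm8. Fam155a, an auxiliary subunit of the sodium leak channel, stood at 1535, 1498 and 1451 CPM in T1-like and 608, 632 and 642 CPM in ET1-like nuclei. Some of these genes were higher still in other projection neurons. Galntl6 averaged 15595 CPM in M2-like and 17660 in ET2-like nuclei, Fam155a 2024 and 4072, and Grm8 3067 and 5792, against 1343 in T1-like nuclei. Agbl4 and Gabrb2 instead were highest in T1-like nuclei among the projection neuron types measured.

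Toward ET1-like nuclei, the 12 largest changes ran from -4.68 (Tmem132cos) to -5.90 (Ccbe1) on the log2 scale. Pip5k1b, a kinase that makes phosphatidylinositol bisphosphate, stood at 679, 756 and 482 CPM in ET1-like and 10.04, 15.6 and 7.79 CPM in T1-like nuclei (log2 fold change -5.80, SE 0.09, edgeR adjusted p = 1.5e-27). Shisa6, an auxiliary protein of AMPA-type glutamate receptors, stood at 509.7, 702 and 252 CPM in ET1-like and 4.79, 16.8 and 4.23 CPM in T1-like nuclei (log2 fold change -5.76, SE 0.13, edgeR adjusted p = 2.01e-24). Cdh4, a classical cadherin, stood at 327, 363 and 159 CPM in ET1-like and 4.205, 11.97 and 5.19 CPM in T1-like nuclei (log2 fold change -5.21, SE 0.13, edgeR adjusted p = 4.78e-23). All 3 genes were far above the T1-like level in each mouse and lowest in the ET1-like library of mouse 3. In ET4-like nuclei these genes were higher still, at means of 1953, 4381 and 2948 CPM, and in ET2-like nuclei they averaged 32.7, 2137 and 759 CPM. Ccbe1, a secreted calcium-binding matrix protein, stood at 81.7, 116 and 77.7 CPM in ET1-like and 1.05, 1.42 and 2.21 CPM in T1-like nuclei. Cdhr3, a cadherin-related protein, stood at 134, 112 and 95.2 CPM in ET1-like and 2.22, 2.65 and 1.25 CPM in T1-like nuclei, and Mro at 74.9, 107 and 58.3 CPM in ET1-like and 1.05, 2.12 and 0.961 CPM in T1-like nuclei. The group was completed by Coch, Tpbgl, Grin2a, Colgalt2, Siah3 and Tmem132cos, of which the last is annotated antisense to Tmem132c. Of the 40 genes named by size or by level in both directions, 25 overlap an annotated gene on the opposite strand, and whether the counting used strand is not given in the sources used here, so such pairs cannot be told apart.

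The most abundant genes called toward ET1-like nuclei were led by Dlg2, a scaffold of the postsynaptic density, at 5707, 6598 and 5898 CPM in ET1-like and 2909.5, 3010.4 and 2640.1 CPM in T1-like nuclei (log2 fold change -1.06, SE 0.06, edgeR adjusted p = 2.57e-15). Rbfox1, a neuronal splicing regulator, differed more, at 3948, 4423 and 4086 CPM in ET1-like and 286, 432 and 314 CPM in T1-like nuclei (log2 fold change -3.59, SE 0.07, edgeR adjusted p = 2.17e-25). Khdrbs2, another RNA-binding splicing regulator, stood at 2072, 2104 and 1802 CPM in ET1-like and 199.7, 206 and 159.8 CPM in T1-like nuclei (log2 fold change -3.38, SE 0.06, edgeR adjusted p = 7.21e-26). No library of the lower type reached a library of the higher type for these genes. Rbfox1 is also abundant in the inhibitory clusters 0 and 1, where 89 to 91.9% of thinned nuclei held a UMI, against 39.6 to 52.4% of T1-like and 97.3 to 98.9% of ET1-like nuclei. Cpne4, a calcium-dependent membrane-binding copine, had a log2 fold change of -2.39, Egfem1 -2.19, the kinase Mast4 -1.84, the adenosine kinase Adk -1.25 and the carbonic anhydrase-related Car10 -1.12.

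ET1-like libraries held genes of the ET4 list at a partial level. Of its 7 genes, 6 were higher in ET1-like than in T1-like nuclei and none the other way (list chosen on these samples). The summed level of the 7 genes was 228, 194 and 104 CPM in ET1-like libraries of mice 1, 2 and 3, 25.7, 29.6 and 22.9 CPM in T1-like and 2112, 1511 and 1534 CPM in ET4-like libraries. Ly6g6e, a surface protein of the Ly6 family, stood at 104, 56.3 and 28.7 CPM in ET1-like and 5.72, 7.72 and 2.403 CPM in T1-like nuclei, and averaged 659.6 CPM in ET4-like nuclei. Foxo1, a forkhead transcription factor, stood at 52.5, 61.1 and 40.3 CPM in ET1-like and 8.18, 8.67 and 6.54 CPM in T1-like nuclei (log2 fold change -2.70, SE 0.15, edgeR adjusted p = 3.45e-15). At least 3 UMIs of the list were found in 32.7, 34.4 and 23.7% of ET1-like nuclei, against 1.53, 3.49 and 4.75% of T1-like and 98.2, 98.0 and 98.1% of ET4-like nuclei. Without such nuclei, an alternative chosen after seeing the data, 579 genes were called toward T1-like and 527 toward ET1-like nuclei, and Shisa6 had a log2 fold change of -5.44, Cdh4 of -4.74 and Vsnl1 of -2.38, from -5.76, -5.21 and -3.42. The list's own genes chose the nuclei removed, so that their ET1-like levels had to fall, as for Siah3 (from -4.76 to -2.80) and Ly6g6e (from -3.41 to -1.69), and nothing is read from this. Of the M2 list, 9 of 11 genes were tested, with 4 higher in T1-like (Sema6d, Samsn1, Ros1 and Zfp114) and 1 in ET1-like nuclei (Itga4). Samsn1 stood at 61.9, 46.6 and 56.5 CPM in T1-like and 11.7, 12.7 and 14.1 CPM in ET1-like nuclei and averaged 113 CPM in M2-like nuclei. Ros1 stood at 22.4, 12.6 and 16.1 CPM in T1-like and 10.8, 9.05 and 2.92 CPM in ET1-like nuclei and lost its call without mouse 3 (log2 fold change 0.75) and without the nuclei rich in ET4-list UMIs (0.83).

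Markers that projection neurons share were split. Of 9 tested, 3 were higher in T1-like and 2 in ET1-like nuclei. Tbx21, a T-box factor of mitral and tufted cells, stood at 38.1, 34.8 and 29.99 CPM in T1-like and 6.28, 3.95 and 1.46 CPM in ET1-like nuclei (log2 fold change 3.15, SE 0.21, edgeR adjusted p = 5.66e-13). Eomes, the related T-box factor Tbr2, went the other way, at 249, 212 and 185 CPM in ET1-like and 90.4, 97.1 and 79.01 CPM in T1-like nuclei (log2 fold change -1.24, SE 0.07, edgeR adjusted p = 4.43e-14). Slc17a6, the vesicular glutamate transporter VGLUT2, stood at 40.4, 51.02 and 41.8 CPM in ET1-like and 18.7, 15.1 and 19.03 CPM in T1-like nuclei (log2 fold change -1.37, SE 0.14, edgeR adjusted p = 5.67e-09). Tbx21 and Eomes thus differed in opposite directions in every mouse. Lbhd2 had a log2 fold change of 2.14, with all its libraries at 11.2 CPM or lower, and of 3.77 without mouse 2 and 3.14 without Gad-positive nuclei, those with 2 or more UMIs of Gad1, Gad2 or Slc32a1.

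Of 76 further transcription factors of forebrain neurons tested, 5 were higher in T1-like nuclei, near the 4.65% of all genes, and 11 in ET1-like nuclei, against 4.23%, with a median log2 fold change of -0.32. Lhx2, a LIM-homeodomain factor, stood at 33.5, 39.5 and 35.3 CPM in T1-like and 9.87, 7.73 and 12.6 CPM in ET1-like nuclei (log2 fold change 1.98, SE 0.17, edgeR adjusted p = 1.7e-10). Tshz2, a teashirt zinc-finger factor, was the most abundant toward T1-like nuclei, at 1414, 1249 and 1287 CPM in T1-like and 435, 373 and 449 CPM in ET1-like nuclei (log2 fold change 1.68, SE 0.06, edgeR adjusted p = 6.98e-19). Creb5 and Tshz3 had log2 fold changes of 1.31 and 1.13, and Tshz3 lost its call without mouse 2 (log2 fold change 0.82), without Gad-positive nuclei (0.82) and with libraries thinned to the smallest. Toward ET1-like nuclei, Dach1 stood at 73.1, 96.6 and 95.2 CPM in ET1-like and 6.54, 7.31 and 4.42 CPM in T1-like nuclei (log2 fold change -3.82, SE 0.14, edgeR adjusted p = 7.48e-19), and Pbx3, a TALE homeodomain factor, at 114, 131 and 88.4 CPM in ET1-like and 18.8, 35.4 and 13.2 CPM in T1-like nuclei (log2 fold change -2.28, SE 0.12, edgeR adjusted p = 2.58e-15). Nr3c2, the mineralocorticoid receptor, and Bcl11b (CTIP2) had log2 fold changes of -1.12 and -1.16, which fell to -0.96 and -0.94 without nuclei rich in ET4-list UMIs. Of 12 regulators that the study named for T1, ET1 and ET4, only Ppargc1a, a coactivator of mitochondrial biogenesis, passed both thresholds. It stood at 197, 194 and 181 CPM in ET1-like and 82.6, 77.6 and 69.97 CPM in T1-like nuclei (log2 fold change -1.29, SE 0.07, edgeR adjusted p = 9.9e-15). Of the other 11, 8 had an adjusted p under 0.05 (edgeR) without passing the fold threshold, and the median log2 fold change of the list was -0.54. The study named these regulators by the activity of their predicted target genes, a measure unlike their own mRNA, and gave several of them to both T1 and ET1.

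Genes of the currents that underlie bursting were called in both directions. A list of HCN, T-type and persistent-current genes that also held TRP channels had 19 genes tested, of which 2 were higher in T1-like and 6 in ET1-like nuclei. Of those 6, 4 were canonical TRP channels, and the 13 genes of the list outside that family had 2 higher in each type. The T-type channels diverged: Cacna1h (Cav3.2) and Cacna1g (Cav3.1) were higher in T1-like nuclei and Cacna1i (Cav3.3) in ET1-like nuclei. Cacna1h stood at 47.5, 39.9 and 42.9 CPM in T1-like and 2.69, 3.79 and 3.401 CPM in ET1-like nuclei (log2 fold change 3.63, SE 0.20, edgeR adjusted p = 3.31e-15). Neither gene was particular to T1-like nuclei, since the inhibitory clusters 0 and 1 averaged 46.6 CPM of Cacna1h and 42.9 of Cacna1g. ET2-like nuclei averaged 5.75 CPM of Cacna1h and 37.9 of Cacna1g, the latter above the T1-like mean of 29.2. Canonical TRP channels, which pass calcium-activated or receptor-gated cation currents, were higher in ET1-like nuclei for 4 of 6 tested, Trpc4, Trpc5, Trpc6 and Trpc7. Trpc5 stood at 98.7, 98.2 and 110.3 CPM in ET1-like and 11.2, 8.902 and 7.305 CPM in T1-like nuclei (log2 fold change -3.47, SE 0.13, edgeR adjusted p = 4.26e-19). Trpc4 stood at 86.1, 103 and 103 CPM in ET1-like and 14.1, 17.9 and 16.5 CPM in T1-like nuclei (log2 fold change -2.56, SE 0.11, edgeR adjusted p = 5.89e-18). Trpc7 was highest in ET4-like nuclei, at a mean of 677 CPM, and stood at 68.6, 67.1 and 25.8 CPM in ET1-like and 6.42, 9.96 and 4.71 CPM in T1-like nuclei. Its log2 fold change was -2.86 and ran from -3.14 to -1.90 with other settings, the last without nuclei rich in ET4-list UMIs.

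Of 56 potassium channel genes tested, 15 were higher in ET1-like and 6 in T1-like nuclei, against 4.23% and 4.65% of all genes. Kcnq3, a subunit of the M-current, stood at 297, 334 and 212 CPM in ET1-like and 17.3, 30.4 and 19.8 CPM in T1-like nuclei (log2 fold change -3.60, SE 0.10, edgeR adjusted p = 1.46e-22). Kcnj6, a G protein-gated inward rectifier, stood at 266, 312 and 256 CPM in ET1-like and 45.4, 75.2 and 59.4 CPM in T1-like nuclei (log2 fold change -2.19, SE 0.08, edgeR adjusted p = 4.93e-19). Kcnn3, a small-conductance calcium-activated channel, stood at 189.8, 219 and 216 CPM in ET1-like and 65.3, 63.4 and 54.3 CPM in T1-like nuclei (log2 fold change -1.75, SE 0.08, edgeR adjusted p = 1.05e-16). Groups did not overlap for these channels. Kcnh7, an ERG-type channel, had a log2 fold change of -1.14, with an ET4-like mean of 5556 CPM, and of -0.57 without nuclei rich in ET4-list UMIs, which ended the call, as did leaving out mouse 2 (-0.91) or Gad-positive nuclei (-0.98). Toward T1-like nuclei, the A-type auxiliary genes Kcnip3 and Dpp10 were higher. Kcnip3 stood at 76.04, 56.8 and 59.5 CPM in T1-like and 13.01, 13.8 and 15.1 CPM in ET1-like nuclei (log2 fold change 2.18, SE 0.13, edgeR adjusted p = 7.75e-14), and Dpp10 at 1331, 908 and 1054 CPM in T1-like and 484, 401 and 181 CPM in ET1-like nuclei (log2 fold change 1.69, SE 0.12, edgeR adjusted p = 3.67e-12). Dpp10 averaged 2297 CPM in ET4-like nuclei. Its log2 fold change was 2.34 without nuclei rich in ET4-list UMIs and 1.35 without mouse 3. Kcnk9, a two-pore leak channel, had a log2 fold change of 1.37, and Kcnt1, a sodium-activated channel, one of 1.01, which was 0.96 without mouse 3 and 0.98 without nuclei rich in ET4-list UMIs, and was also under the threshold with library sizes in place of TMM. Of 20 high-voltage calcium and other sodium channel genes, 1 was higher in each: Cacna1e (R-type) in T1-like, at 1.32, and Cacna2d2 in ET1-like nuclei, at -2.90.

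Inhibitory cells of the bulb act on projection neurons through GABA-A receptors, which are chloride channels, and GABA-B receptors, which couple to G proteins. Of 22 GABA and glycine receptor genes tested, 5 were higher in T1-like (among them Gabra4, Gabrb2 and Kctd16) and 3 in ET1-like nuclei (Gabra2, Gabbr2 and Kctd12). Gabrb2, a GABA-A subunit, stood at 1502, 1349 and 1575 CPM in T1-like and 479.6, 338 and 408 CPM in ET1-like nuclei (log2 fold change 1.89, SE 0.07, edgeR adjusted p = 1.42e-19). Gabrb2 averaged 489.7 CPM in ET4-like, 1046 in ET2-like and 1039.5 in M2-like nuclei. Gabbr2, a GABA-B subunit, went the other way, at 55.2, 61.1 and 47.1 CPM in ET1-like and 1.75, 3.71 and 3.08 CPM in T1-like nuclei (log2 fold change -4.18, SE 0.18, edgeR adjusted p = 2.07e-17). Kctd16 and Kctd12, auxiliary subunits of that receptor, were called in opposite directions, at 1.42 and -1.60. Gabra2 lost its call without mouse 1 (log2 fold change -0.89) and with all 7 types in 1 fit.

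Glutamate receptor genes separated by subunit. Of 38 tested, 5 were higher in T1-like and 6 in ET1-like nuclei. The NMDA receptor subunit Grin2a (GluN2A) stood at 223, 238 and 172 CPM in ET1-like and 3.504, 10.1 and 3.17 CPM in T1-like nuclei (log2 fold change -5.10, SE 0.15, edgeR adjusted p = 8.22e-22). Grin2c (GluN2C), another subunit of the same class, stood at 71.5, 48.2 and 46.3 CPM in T1-like and 10.3, 3.62 and 2.92 CPM in ET1-like nuclei (log2 fold change 3.44, SE 0.18, edgeR adjusted p = 2.18e-15). The 2 genes thus changed in opposite directions in all 3 mice. The AMPA receptor subunit Gria1 (GluA1) stood at 1338, 1394 and 1158 CPM in ET1-like and 95.5, 109 and 78.6 CPM in T1-like nuclei (log2 fold change -3.76, SE 0.07, edgeR adjusted p = 4.13e-26), and Gria3 had a log2 fold change of -1.52 (-0.97 without nuclei rich in ET4-list UMIs). Auxiliary subunits were called both ways, with Shisa6 higher in ET1-like nuclei and Cnih3 (2.62) and Neto2 higher in T1-like nuclei. Grm8, a presynaptic metabotropic receptor, stood at 1498, 1233 and 1299 CPM in T1-like and 652, 546 and 559 CPM in ET1-like nuclei (log2 fold change 1.22, SE 0.06, edgeR adjusted p = 2.17e-16). Gria1 and Grin2a are abundant in the inhibitory clusters, where 81.9 to 84.3% and 69.7 to 72.7% of thinned nuclei held a UMI. T1-like nuclei held them in 19 to 24.1% and 0.965 to 3.03%, and ET1-like nuclei in 87.6 to 89.8% and 28.3 to 46.4%.

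**Figure D3:**
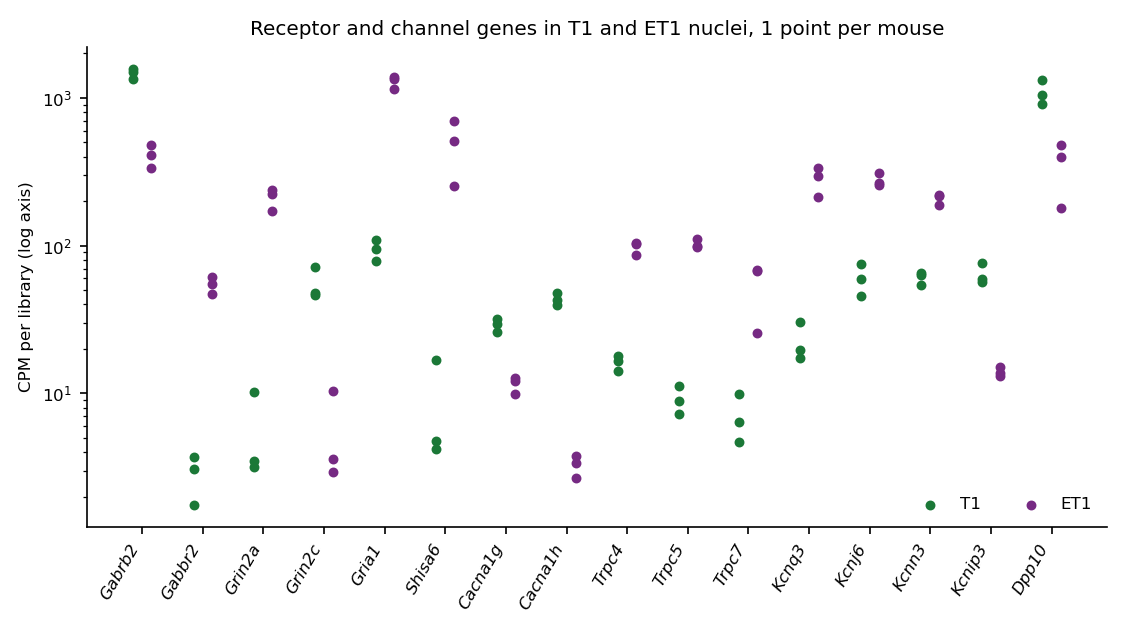
CPM on a log axis of 16 receptor and channel genes in T1- and ET1-like nuclei, 1 point per mouse. Gabrb2 and Grin2c lie higher in T1 in all 3 mice, and Gria1 and Kcnq3 higher in ET1, with no overlap between the types for any gene shown.

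Receptors for modulators were sparse. Of 20 acetylcholine and monoamine receptor genes tested, 3 were higher in T1-like and 4 in ET1-like nuclei. Chrm2, the muscarinic M2 receptor, stood at 61.02, 65.3 and 58.3 CPM in ET1-like and 4.67, 10.9 and 5.29 CPM in T1-like nuclei (log2 fold change -3.07, SE 0.17, edgeR adjusted p = 4.42e-15), and Htr1d, a serotonin receptor, at 27.4, 23.5 and 23.8 CPM in ET1-like and 6.77, 5.07 and 5.38 CPM in T1-like nuclei. Toward T1-like nuclei, Adra1a had a log2 fold change of 1.35 and Htr5a of 1.20. Dopamine receptors were low in both types, with Drd1 at 12.6, 11.5 and 14.1 CPM in ET1-like and 5.14, 5.19 and 5.96 CPM in T1-like nuclei and Drd3 at 6.66, 4.42 and 4.902 CPM in T1-like and 0, 0.165 and 0.486 CPM in ET1-like nuclei. Of 20 neuropeptide and granin genes, 5 were higher in T1-like and 1 in ET1-like nuclei. Gal, the precursor of galanin, stood at 53.3, 28.8 and 35.1 CPM in T1-like and 18.8, 11.8 and 11.7 CPM in ET1-like nuclei (log2 fold change 1.45, SE 0.15, edgeR adjusted p = 3.29e-09). Crh, the corticotropin-releasing hormone gene, overlapped between the types and was not called without the block (edgeR adjusted p = 0.0914). Cartpt stood at 6.28, 4.94 and 5.83 CPM in ET1-like and 1.28, 0.649 and 0.577 CPM in T1-like nuclei. Of 14 neuropeptide receptor genes, Rxfp1, Oprm1, the mu opioid receptor, and Cckbr, a cholecystokinin receptor, were higher in ET1-like nuclei and none in T1-like nuclei.

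Semaphorins, with their plexin and neuropilin receptors, steer growing axons and dendrites. Of 25 semaphorin, plexin and neuropilin genes tested, 7 were higher in T1-like nuclei and none in ET1-like nuclei, against 4.65% and 4.23% of all genes. Nrp1, the neuropilin that binds class 3 semaphorins, stood at 448, 541 and 518 CPM in T1-like and 97.4, 119 and 113 CPM in ET1-like nuclei (log2 fold change 2.21, SE 0.07, edgeR adjusted p = 8.46e-21). Sema6d, a transmembrane semaphorin, stood at 83.05, 83.5 and 85.9 CPM in T1-like and 18.4, 26.3 and 36.9 CPM in ET1-like nuclei (log2 fold change 1.67, SE 0.12, edgeR adjusted p = 3.63e-12). Sema3d and Sema3e, secreted ligands, had log2 fold changes of 1.08 (0.96 without nuclei rich in ET4-list UMIs) and 1.78, and Sema5a, Plxna3 and Nrp2 were called as well. M2-like nuclei averaged 414 CPM of Nrp1 and 477 of Sema6d, ET4-like nuclei 150.3 and 17.6, and ET2-like nuclei 239 and 132, the last above the T1-like mean. Among 30 ephrin, Slit-Robo, netrin and teneurin genes, 6 were higher in T1-like and 4 in ET1-like nuclei. Dcc, the netrin receptor, stood at 346, 394 and 376 CPM in T1-like and 76.3, 68.5 and 63.2 CPM in ET1-like nuclei (log2 fold change 2.46, SE 0.08, edgeR adjusted p = 2.07e-20). Its partners Unc5b and Unc5d had log2 fold changes of 3.41 and 1.01, and Unc5d was under the threshold without mouse 1 (0.98) or mouse 3 (0.99) and under 3 other settings. The teneurin Tenm2, a large transmembrane adhesion protein, stood at 451, 568 and 449 CPM in ET1-like and 23.8, 53.2 and 32.9 CPM in T1-like nuclei (log2 fold change -3.73, SE 0.10, edgeR adjusted p = 7.77e-23), and Tenm3 had a log2 fold change of -1.35.

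Of 31 cadherins and protocadherins tested, calcium-dependent adhesion proteins, 10 were higher in ET1-like and 3 in T1-like nuclei (Cdh13, Cdh22 and Pcdh1), against 4.23% and 4.65% of all genes. Pcdh9 stood at 380.5, 431 and 392 CPM in ET1-like and 86.4, 75.3 and 72.5 CPM in T1-like nuclei (log2 fold change -2.35, SE 0.08, edgeR adjusted p = 1.29e-20), and Cdh6 at 724, 764 and 791 CPM in ET1-like and 265, 255 and 289 CPM in T1-like nuclei (log2 fold change -1.47, SE 0.06, edgeR adjusted p = 8e-18). Cdh13 stood at 316, 266 and 294 CPM in T1-like and 159.7, 88.05 and 98.1 CPM in ET1-like nuclei (log2 fold change 1.41, SE 0.09, edgeR adjusted p = 8.63e-14). Of 51 synaptic adhesion genes, 12 were higher in ET1-like and 5 in T1-like nuclei, against the same shares. Cntnap5b, a member of the Caspr family, stood at 208, 192 and 206 CPM in ET1-like and 7.94, 10.2 and 8.55 CPM in T1-like nuclei (log2 fold change -4.44, SE 0.10, edgeR adjusted p = 5.12e-24). Lrrtm4, a postsynaptic partner of neurexin and heparan sulfate proteoglycans, stood at 433, 389 and 256 CPM in ET1-like and 33.6, 52.8 and 34.3 CPM in T1-like nuclei (log2 fold change -3.10, SE 0.10, edgeR adjusted p = 1.38e-20). Cntn5, a contactin, stood at 430.3, 337 and 348 CPM in T1-like and 114, 121 and 113 CPM in ET1-like nuclei (log2 fold change 1.68, SE 0.08, edgeR adjusted p = 1.14e-16). Its log2 fold change was 2.48 without nuclei rich in ET4-list UMIs, 2.15 without Gad-positive nuclei and 1.56 without mouse 1. Cbln4, a secreted cerebellin, had a log2 fold change of 1.07 (0.93 without nuclei rich in ET4-list UMIs), and also lost its call with libraries thinned to the smallest.

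Of 33 signalling genes of the Wnt, BMP and FGF families tested, 5 were higher in each type, and 2 to 6 toward T1-like and 4 to 7 toward ET1-like nuclei with other settings. Wnt9a, a Wnt ligand below 5 CPM in every library, was among the 5 toward T1-like nuclei (log2 fold change 1.91) and lost its call with DESeq2, without Gad-positive nuclei (log2 fold change 1.43) and without mouse 2 (1.75). Ror1, a receptor for Wnt5-type ligands, was higher in T1-like nuclei at 50.7, 59.9 and 54.6 CPM in T1-like and 9.87, 17.6 and 15.1 CPM in ET1-like nuclei (log2 fold change 1.94, SE 0.14, edgeR adjusted p = 1.83e-12), whereas the ligand Wnt5b was higher in ET1-like nuclei. Dkk3 had a log2 fold change of 3.41, and of 4.24 without Gad-positive nuclei and 3.09 without mouse 1. Of the receptors for BMPs and activins, Bmpr1b stood at 459.9, 477 and 348 CPM in ET1-like and 79.5, 79.7 and 74.3 CPM in T1-like nuclei (log2 fold change -2.43, SE 0.07, edgeR adjusted p = 2.51e-21) and Acvr2a at 239, 253 and 199.7 CPM in ET1-like and 50.1, 53.1 and 53.3 CPM in T1-like nuclei (log2 fold change -2.12, SE 0.08, edgeR adjusted p = 5.06e-19). Among 28 calcium-binding and calcium-store genes, 3 were higher in each. The calcium release channels went in opposite directions, with Ryr1 at 168, 180.0 and 191 CPM in T1-like and 40.4, 36.4 and 45.2 CPM in ET1-like nuclei (log2 fold change 2.20, SE 0.09, edgeR adjusted p = 3.66e-18) and Itpr1 at 177, 166 and 137 CPM in ET1-like and 11.6, 7.78 and 5.86 CPM in T1-like nuclei (log2 fold change -4.27, SE 0.11, edgeR adjusted p = 1.22e-22). Of 40 vesicle release genes, 5 were higher in T1-like and 2 in ET1-like nuclei. Syt7, a calcium sensor of asynchronous release, stood at 609, 638 and 644 CPM in T1-like and 249, 223 and 269 CPM in ET1-like nuclei (log2 fold change 1.39, SE 0.07, edgeR adjusted p = 2.39e-16), and Unc13c, a vesicle priming factor, at 34.5, 46.7 and 50.05 CPM in ET1-like and 5.02, 5.13 and 5.29 CPM in T1-like nuclei (log2 fold change -3.07, SE 0.17, edgeR adjusted p = 4.96e-15). Syn2, Syn3 and Stx1a were higher in T1-like nuclei by 1.53, 1.20 and 1.09 on the log2 scale, and Stx1a fell under the threshold without mouse 1 (0.90).

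**Figure D4:**
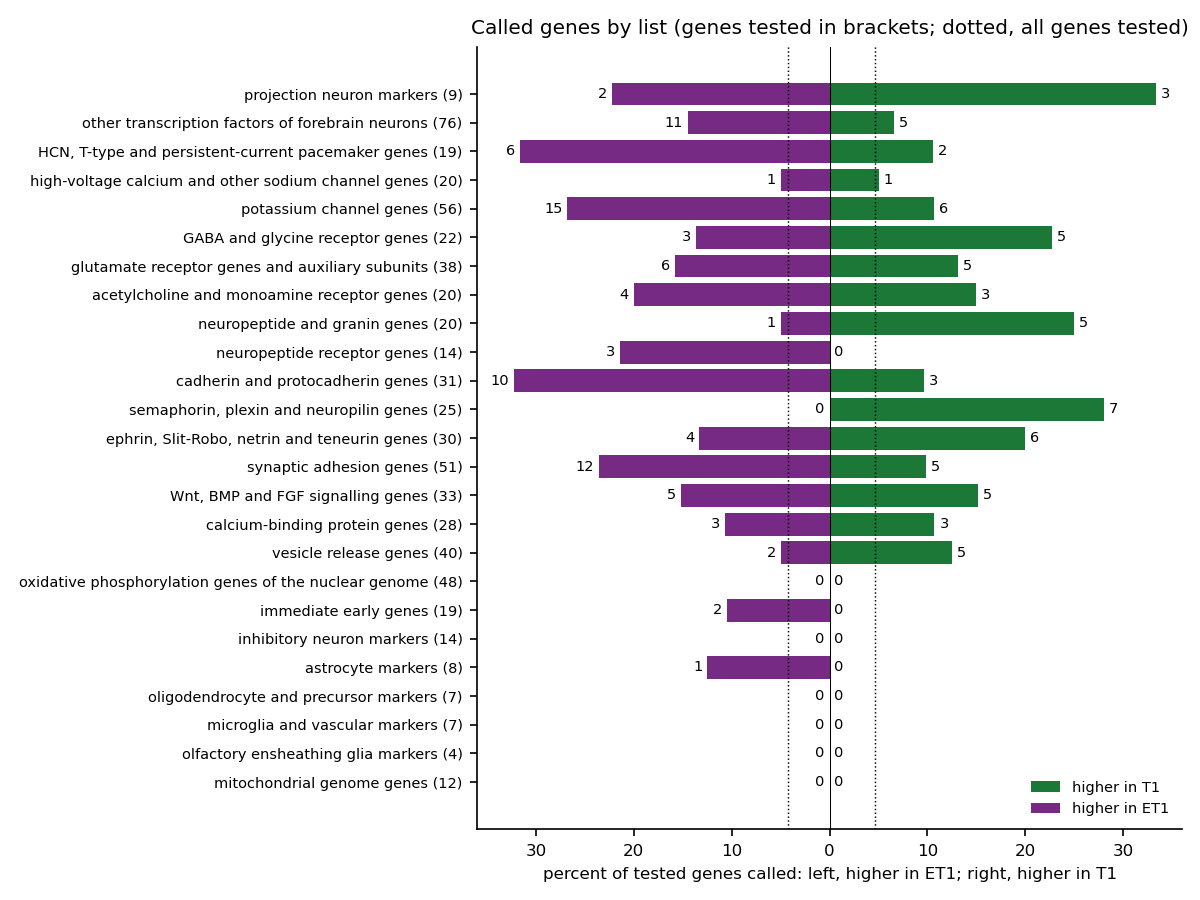
Percent of the tested genes of each list, without the lists taken from the study, that were called higher in T1 (right) or ET1 (left), with the number called beside each bar and the share over all genes tested as dotted lines at 4.65% and 4.23%. Among the lists shown, cadherin genes reach farthest left, followed by the pacemaker, potassium channel and synaptic adhesion lists, and semaphorin, plexin and neuropilin genes lie on the right alone (0 to 1 on the left with other settings).

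Mitochondrial genes moved by small amounts. None of 48 nuclear oxidative phosphorylation genes was called, but 34 had an adjusted p under 0.05 (edgeR), against 28.5% of all genes tested, and the median log2 fold change was -0.39. Their summed level was 2826, 3463 and 2561 CPM in T1-like and 4020, 4518 and 3236 CPM in ET1-like nuclei of mice 1, 2 and 3, higher in the second in each mouse. The 12 mitochondrial genome genes tested had a median of -0.67, with none called and 10 under that p. Their sum was 381, 498 and 272 CPM against 601, 701 and 477 CPM, and as RNA outside the nucleus it also tracks how clean the nuclei were. Without nuclei rich in ET4-list UMIs, mt-Co3 and mt-Co1 had log2 fold changes of -0.27 and -0.31, from -0.54 and -0.53. The nuclear genes Atp5a1 and Cox8a were then both at -0.19, from -0.31 and -0.32. Of 19 immediate early genes, Fosl2 and Ier2 were called toward ET1-like nuclei, with both below 8 CPM in every library and both overlapping between the types. Fosl2 lost its call under 6 settings, among them without the block and with DESeq2. Its log2 fold change was -0.49 without mouse 2 and -2.20 without mouse 3. With other settings 0 to 3 genes of the list were called toward ET1-like nuclei.

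Markers of other cells were checked in the same libraries. None of 14 inhibitory neuron markers was called, all 14 had UMIs, and their median log2 fold change was -0.45. Their summed level was 156, 299 and 118 CPM in T1-like and 299, 404 and 109 CPM in ET1-like nuclei of mice 1, 2 and 3, so that it was higher in ET1-like nuclei of mice 1 and 2 and lower in those of mouse 3. At least 2 UMIs of Gad1, Gad2 or Slc32a1 were found in 22.03, 46.3 and 19.7% of T1-like and 31.97, 49.3 and 21.1% of ET1-like nuclei of mice 1, 2 and 3, the largest share being that of mouse 2 in both types. Without these nuclei, 591 and 543 genes were called. The library of mouse 2 was also the largest, with 29829 called barcodes against 7718 in mouse 1 and 6876 in mouse 3. Its retained nuclei numbered 21105, against 5845 and 4753. The part of doublets or free RNA in the larger share of mouse 2 was not tested. Of 8 astrocyte markers 1 was called toward ET1-like nuclei, Slc4a4, at 47.1, 55.3 and 51.02 CPM in ET1-like and 12.96, 17.2 and 9.04 CPM in T1-like nuclei. Sums of the list were 47.4 to 69.7 CPM in T1-like and 100.1 to 118.5 CPM in ET1-like libraries. They include Slc4a4, which makes up much of the difference. No oligodendrocyte, microglia or ensheathing glia marker was called (7, 7 and 4 tested). The part of these cells in the calls was not tested.

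Of 6 neighbouring odorant receptor genes, 5 were among the 10 leading genes of the T1-like subcluster. Olfr110 and Olfr111 are from the T1 list, and the other 4 were chosen after their values were seen. Odorant receptors are G protein-coupled receptors best known from sensory neurons of the nose. Olfr110 to Olfr115 lie within 134.6 kb at chr17:37492468-37627109 (GRCm38), 2 on the plus and 4 on the minus strand. Olfr111 stood at 1469, 1506 and 1457 CPM in T1-like and 919, 819 and 963 CPM in ET1-like nuclei (log2 fold change 0.74, SE 0.06, edgeR adjusted p = 4.96e-11). Olfr115 stood at 432, 409 and 506 CPM in T1-like and 233, 196 and 308 CPM in ET1-like nuclei (log2 fold change 0.92, SE 0.07, edgeR adjusted p = 6.6e-12). Olfr112 stood at 363, 402 and 417 CPM in T1-like and 218, 214 and 271 CPM in ET1-like nuclei (log2 fold change 0.79, SE 0.07, edgeR adjusted p = 1.27e-10). All T1-like libraries lay above all ET1-like libraries for these genes and for Olfr113 (0.89) and Olfr114 (0.72), yet none reached the fold threshold. Olfr110 overlapped, at 128, 140.1 and 119 CPM in T1-like and 108, 103 and 121 CPM in ET1-like nuclei (log2 fold change 0.27, SE 0.08, edgeR adjusted p = 0.014).

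The summed level of the 6 receptor genes was 2552, 2592 and 2651 CPM in T1-like, 1562, 1406 and 1768 CPM in ET1-like and 380, 417 and 278 CPM in M2-like nuclei of mice 1, 2 and 3. It was 21.9, 17.8 and 90.8 CPM in ET4-like nuclei and at most 248.1 CPM in any library of M1-, M3- or ET2-like nuclei. T1-like and ET1-like nuclei thus shared these genes at levels above all other types measured. A UMI of at least 1 of the 6 was found in 97.2 to 98.7% of T1-like and 78.7 to 87.7% of ET1-like nuclei without thinning, and the median nucleus held UMIs of 5 of the 6 genes in T1-like and of 4, 4 and 5 in ET1-like nuclei of mice 1, 2 and 3. For Olfr111 alone the thinned share was 89.7 to 92.1% in T1-like and 65.6 to 72.6% in ET1-like nuclei, against 0.78 to 1.3% in the inhibitory clusters. The other 15 odorant receptor genes tested were at most 9.05 CPM on average in either type, and none had an adjusted p under 0.05 (edgeR). Between Olfr110 and Olfr111, 31.8% and 20.9% of the 50-base words of their transcripts are shared, so the counts of both are uncertain. For Olfr112 to Olfr115, 4.12 to 11.5% of words occur in another olfactory or vomeronasal receptor transcript. The RefSeq windows at the annotated starts of Olfr110 and Olfr111 are shown because both genes were abundant in both types.
Olfr110 (chr17:37492218-37492517, plus strand): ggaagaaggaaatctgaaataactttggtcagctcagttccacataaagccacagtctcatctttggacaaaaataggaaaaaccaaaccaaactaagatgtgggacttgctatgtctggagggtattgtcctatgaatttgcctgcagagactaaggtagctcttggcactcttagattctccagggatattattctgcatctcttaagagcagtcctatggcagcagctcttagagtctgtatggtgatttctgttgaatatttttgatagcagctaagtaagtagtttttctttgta
Olfr111 (chr17:37529707-37530006, plus strand): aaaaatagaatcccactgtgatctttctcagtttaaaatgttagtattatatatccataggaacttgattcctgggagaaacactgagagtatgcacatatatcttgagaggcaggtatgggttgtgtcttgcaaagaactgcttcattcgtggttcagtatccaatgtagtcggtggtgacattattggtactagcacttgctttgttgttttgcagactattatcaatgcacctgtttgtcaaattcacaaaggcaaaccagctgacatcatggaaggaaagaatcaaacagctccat
Neither window held the EBF motif TCCCNNGGGA (1.05% of all promoters), the LIM-homeodomain motif TAATTA (2.82%) or TATAAA. The start annotated for Olfr111 lies within a longer gene model, so the window need not be the one used in these cells.

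**Figure D5:**
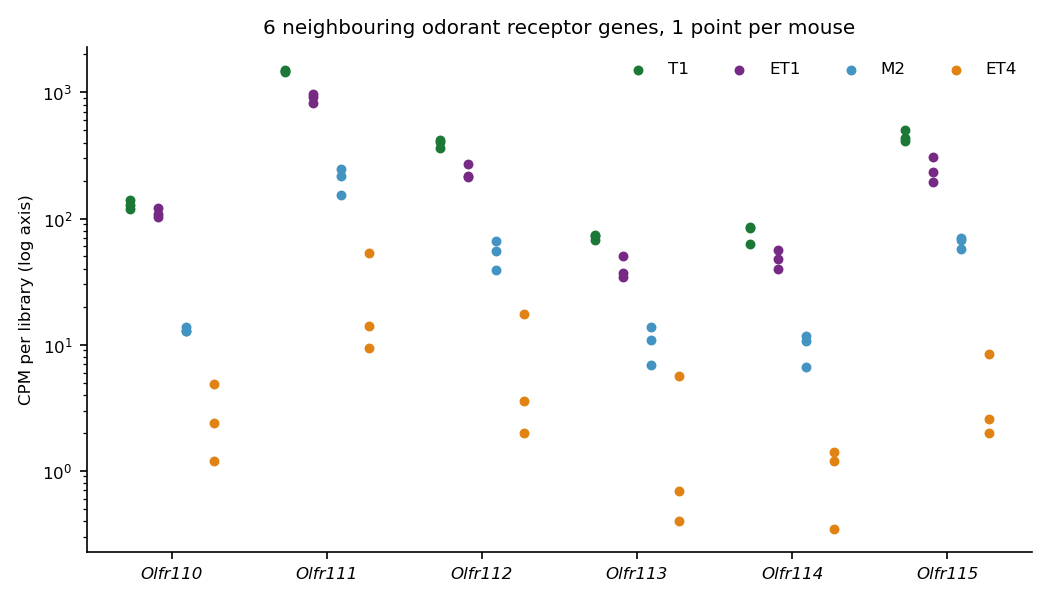
CPM on a log axis of 6 odorant receptor genes that lie next to each other, in T1-, ET1-, M2- and ET4-like nuclei, 1 point per mouse. T1 lies above ET1 for 5 of the 6 genes, and both lie above M2 and ET4 for every gene.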

How the data were processed

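Gene by barcode matrices of the 3 mice held raw counts of UMIs, deposited as Cell Ranger wrote them (version 3.0.2 in the matrix header; mm10/GRCm38 in the submitters' processing notes); gene annotation and strand setting are not given in the sources used here. The deposited table of nuclei gave the mouse, the cluster and subcluster, and the authors' percent of UMIs from mitochondrial genes, computed per nucleus; the authors had merged the mice, filtered the nuclei and clustered them in Seurat; its deposited score and other columns were used only to describe nuclei or not at all.

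UMIs were summed per mouse and subcluster and tested with edgeR 4.0.16 (R 4.3.3; TMM, filterByExpr by type, quasi-likelihood F-test, mouse as a block), after a test on simulated counts. Mouse numbers pair the libraries because both come from the same animal; deviations from the type means correlated at 0.18, 0.28 and 0.19 within mice and between -0.15 and -0.05 across mice. Calls needed an adjusted p under 0.05 over all genes and a log2 fold change beyond 1. SE is the absolute log2 fold change over the square root of F. Named genes were the 12 largest changes of at least 20 CPM and the 8 most abundant called genes per direction, with libraries apart, plus up to 4 called members per direction of 31 lists of 837 genes. Members and lists were chosen with earlier results of these data known. No doublet caller was run here. Positions are from GENCODE M21, promoters from RefSeq. Some genes are not reported here. Alternatives are given in the closing section.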

Additional observations from a re-analysis of the deposited data

How the results depend on the processing

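Counts of genes called toward T1-like and ET1-like nuclei were 658 and 599, and with other settings they were 608 and 569 without the replicate block, 517 and 515 by DESeq2, 633 and 624 with library sizes in place of TMM, 754 and 610 without a filter and 489 and 481 with every library thinned to the smallest. Requiring at least 10 CPM in 3 libraries left 357 and 344, with fewer genes tested; 357 of the 358 and 344 of the 344 original calls still tested were kept. Leaving out a mouse gave 621 to 682 toward T1-like and 558 to 634 toward ET1-like nuclei. Of 2 alternatives chosen after seeing the data, nuclei on which the authors' 2 clusterings matched gave 681 and 613, and nuclei under 3 ET4-list UMIs 579 and 527. Of the called genes named by the rule and reported here none reversed, 130 of 149 were called under every alternative that tested them, and the others lost the call under at least 1, most of them near a log2 fold change of 1. Of 930 list counts under an alternative, 40 moved by over 1.5 times. Over the alternatives, counts toward T1-like nuclei ran from 6 to 9 for the semaphorin list, 1 to 5 for neuropeptides, 2 to 7 for ephrins, Slits, netrins and teneurins and 2 to 6 for the Wnt, BMP and FGF list, each of the last 3 lowest with at least 10 CPM required. Toward ET1-like nuclei potassium channels ran from 11 to 17 and synaptic adhesion genes from 7 to 13. Without mouse 2, the log2 fold changes of Tpbgl, Grin2a and Lbhd2 were -6.32, -5.84 and 3.77. Uncalled genes changed sign in 4 fits. Leaving out a mouse moved the log2 fold change of Fam84b over -0.047 to 0.27 and of P2ry12 over -0.17 to 0.35, both negative without mouse 2. Meis2 was at 0.019 without Gad-positive nuclei and P2ry12 at -0.011 without ET4-rich nuclei. Fosl2, Syt10 and Crh, of low level, each lost the call under 5 or 6 settings; the cause was not tested. The ratio of median UMIs per nucleus stayed positive with each mouse left out (0.12 to 0.21 on the log2 scale), that of genes at 0.06 to 0.10, and the mean share of ET1-like nuclei ran from 19.6 to 25.7%. With 3 mice the exact test cannot fall under 0.25.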
